A study of Mus musculus with 6 samples.

Results

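The small RNAs described here are the dominant mmu_piR_ species of the control testis, the 180 of 24845 species with mmu_piR_ identifiers that had a mean of at least 500 RPM (read counts scaled to 1000000 reads on all listed species of a library) over the 3 control libraries. Only control values chose them, so their high control level is a description and not a result. The files list 659239 small RNA species in all, and the remainder carry uniq_ identifiers that the files do not define. Testes came from C57BL/6 mice whose scrotum was held for 15 minutes in water at 43 °C (heat stress, 3 libraries) or at 36 °C (control, 3 libraries), with small RNA sequenced 24 hours later. The labels count 12 mice and give neither their age nor the number of mice behind a library, so the p-values below measure only the spread between these libraries, which may in part be technical. No transgene or mutant allele is named for either group.

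PIWI-interacting RNAs (piRNAs) are small RNAs of animal germ cells that guide PIWI proteins to transposon transcripts and other targets. In the adult mouse testis most of them are pachytene piRNAs, which are cut from long single-stranded precursor transcripts made in meiotic spermatocytes and persist into round spermatids. A precursor yields many different piRNAs, and their individual abundances differ widely. No sequences, lengths or positions accompany the identifiers, and neither messenger RNAs nor microRNAs are listed, so that the piRNA identity of the species and the tissue label were taken from the identifiers and labels and could not be checked against markers. In whole testis, fewer cells of a type and less RNA per cell cannot be told apart.

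The libraries held between 2573473 and 4255001 reads on listed species in control and 2260175, 2599530 and 582789 reads in heat stress replicates 1, 2 and 3. The mmu_piR_ species as a whole held 67.2% to 67.3% of the reads in control. In heat stress replicates 1, 2 and 3 they held 87.5%, 77.2% and 92.6%, which lifts the RPM of every such species without any change among them. Values were therefore also scaled to the mmu_piR_ reads alone. Groups of 3 values below are in the order of replicates 1, 2 and 3.

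The dominant pool took up less of the small RNA after heat stress. It held 21.9%, 22.2% and 23.2% of the listed reads in the controls and 15.2%, 19.3% and 15.5% in the heat stress libraries. The means were 22.4% ± 0.653 (SD, n = 3) and 16.7% ± 2.27 (SD, n = 3), and the groups did not overlap (exact two-sided permutation p = 0.1, the smallest that 3 against 3 libraries allow). Of the mmu_piR_ reads the pool held 32.6%, 33.1% and 34.5% in control and 17.4%, 24.95% and 16.7% in heat stress. These means were 33.4% ± 0.975 and 19.7% ± 4.58 (SD, n = 3 each, exact permutation p = 0.1, and also 0.1 after Benjamini-Hochberg adjustment over these 2 tests). Both tests use the control values that also chose the pool, so their p-values are no independent support for a lower share. The difference was 5.79 percentage points of the listed reads and 13.7 percentage points of the mmu_piR_ reads. Heat stress replicate 2 lay nearest to the controls on both scales. Counting error was small beside these differences, the widest 95% Wilson interval being 16.6% to 16.8% in the shallow heat stress replicate 3.

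Choosing species for a high control level by itself makes the same controls look high. The shares were therefore also taken for species chosen on 2 controls and read in the third. The lists held 182, 178 and 177 species, and the control left out of the choice (replicate 1, 2 and 3 in turn) had 21.7%, 21.9% and 22.5% of its listed reads on them. The same lists held 15.2% to 15.4% in heat stress replicate 1, 19.2% to 19.5% in replicate 2 and 15.5% to 15.8% in replicate 3. Of the mmu_piR_ reads they held 32.3%, 32.5% and 33.5% in the control left out, and between 16.8% and 25.2% in the heat stress libraries. The median species in the control left out was lower than in the controls used for the choice by only 0.01 to 0.02 on the log2(RPM + 1) scale.

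**Figure D1:**
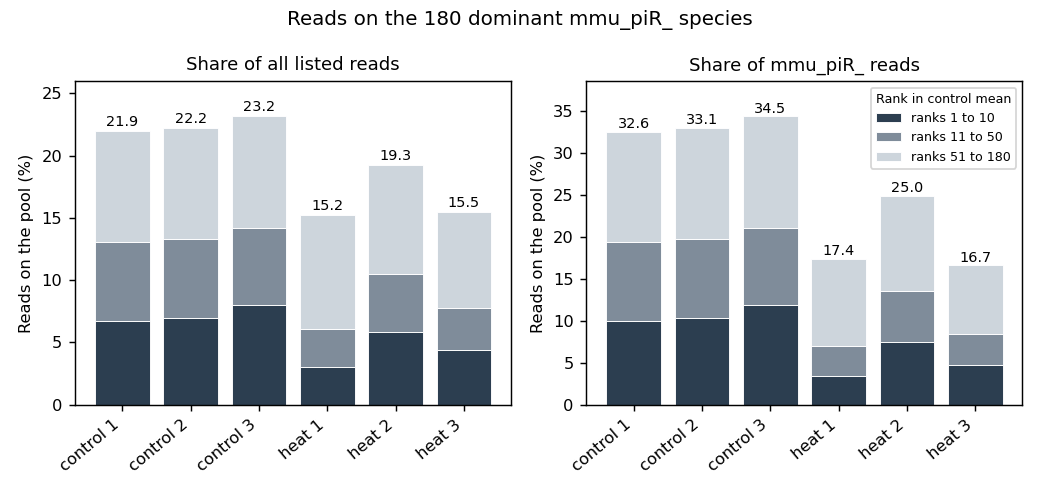
Percentage of all listed reads (left) and of mmu_piR_ reads (right) on the 180 dominant mmu_piR_ species in each library, stacked by the rank of the species in the control mean, with the total printed above each bar. The heat stress bars lie between 15.2% and 19.3% on the left and between 16.7% and 24.95% on the right, all below the control bars.

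The summed share was then split by rank in control. The 10 species with the highest control means held 6.71%, 6.92% and 8.04% of the listed reads in control and 2.99%, 5.81% and 4.36% in heat stress. The 40 species at control ranks 11 to 50 held 6.36%, 6.36% and 6.14% in control and 3.10%, 4.64% and 3.41% in heat stress. In both bands the groups did not overlap. The 130 species from rank 51 down held 8.87%, 8.94% and 9.002% in control and 9.15%, 8.82% and 7.69% in heat stress, where the groups overlapped. That sum includes 5 of the 6 species that rose, and the counts of members called in each band are given with the test. Of the mmu_piR_ reads this lower band held 13.2% to 13.4% in control and 10.5%, 11.4% and 8.30% in heat stress, without overlap. The bands were ranked on the same controls and no test was made of the difference between them.

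Each species was then compared between the groups with limma on log2(RPM + 1), over the 50786 listed species that reached 1 RPM in 3 or more libraries, and called at a Benjamini-Hochberg adjusted p under 0.05. All 180 members passed this filter. The test called 87 members lower and 6 higher after heat stress, and 87 were not called. Over all 17626 mmu_piR_ species tested, 9.85% were called lower and 15.9% higher, and over all species tested 31.6% and 6.36%. The members' median log2 fold change was -1.13, against 0.03 over all mmu_piR_ species tested and -0.87 over all species tested. By rank in control, 5 of the first 10 members were called lower and 0 higher (median -1.09), 23 of the 40 at ranks 11 to 50 lower and 1 higher (median -1.21), and 59 of the 130 from rank 51 down lower and 5 higher (median -1.04). Falls thus made up 50% and 57.5% of the upper bands and 45.4% of the lower band, whose summed share overlapped between the groups. The difference in these percentages was not tested. Groups without overlap were seen for 111 members with heat stress below control and 16 with heat stress above, where 19.0% and 24.2% of the tested mmu_piR_ species lay. The choice on control level favours falls in such counts. Against a control left out of the choice, 118, 125 and 118 species of the 182, 178 and 177 chosen had all 3 heat stress values under that control's value, and 27, 22 and 16 had all 3 above it. Over all mmu_piR_ species tested, the same comparison with control replicates 1, 2 and 3 put 28.6%, 27.9% and 27.8% below and 31.2%, 31.4% and 33.1% above.

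Scaled to the mmu_piR_ reads alone, 86 members were called lower, 5 higher and 89 not called by limma, beside 10.8% lower and 10.1% higher among the mmu_piR_ species tested. On this scale 126 members lay below all controls in each heat stress library and 9 above, as did 25.1% and 19.4% of the mmu_piR_ species tested. The median log2 fold change of the members on this scale was -1.48, and that of all mmu_piR_ species tested was -0.26. Of the 87 members that fell on the RPM scale 84 also fell on this one, and of the 6 that rose 5 also rose. The median fold change was nearer to 0 among less abundant species. It was -0.66 on the RPM scale for the 1073 mmu_piR_ species between 100 and 500 RPM in the control mean, of which 315 fell and 104 rose, and -0.30 for the 5949 between 10 and 100 RPM, of which 825 fell and 756 rose. These tiers were cut on control values too, and the differences between them were not tested.

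The number of falls depended on the filter, the scaling, the depth and single libraries. The pool's share was lower in heat stress with other limits, with the choice on 2 controls and without top members or single libraries. It was not recomputed with other filters, TMM factors, array weights, thinning, edgeR or DESeq2. With no filter on low values limma called 12 members lower (6.67%) and 3 higher (1.67%), beside 0.998% and 4.05% of all mmu_piR_ species tested. With all libraries thinned to equal depth it called 47 (26.1%) and 6 (3.33%), beside 3.65% and 8.68%. TMM scaling, which sets aside changes in composition by taking most species as unchanged, moved the median of all tested species from -0.87 to -0.53. With these factors limma called 19 members lower (10.6%) and 14 higher (7.78%), beside 3.12% and 21.9% of the mmu_piR_ species tested. The median was -0.51 for the members and 0.50 for all mmu_piR_ species tested. edgeR on the recovered reads, also with TMM, called 14 lower (7.78%) and 17 higher (9.44%), beside 2.34% and 29.2%, with medians of -0.41 and 0.74. DESeq2 called 40 lower (22.2%) and 12 higher (6.67%), beside 4.19% and 22.6%, with medians of -0.69 and 0.48. Relative to the median mmu_piR_ species the median member was lower on each of these scales. Scaling a library shifts members and other mmu_piR_ species nearly alike, so this gap could hardly differ between scales. It adds no support beyond the RPM scale, and the controls that chose the members enter each fit. Without control replicates 1, 2 and 3 limma called 44, 45 and 38 members lower and 5, 5 and 6 higher. Without heat stress replicates 1, 2 and 3 it called 42, 121 and 38 lower and 8, 11 and 7 higher. Over all mmu_piR_ species tested, 4.096%, 4.44% and 4.31% fell and 9.37%, 9.75% and 9.09% rose without control replicates 1, 2 and 3. With heat stress replicates 1, 2 and 3 left out in turn, 4.05%, 20.03% and 6.69% fell and 12.3%, 20.3% and 13.4% rose. On the mmu_piR_ scale the falls numbered 12, 12 and 6 without control replicates 1, 2 and 3 and 35, 129 and 20 without heat stress replicates 1, 2 and 3, so the 84 falls shared by both scales are a count over the full set of libraries. Of all mmu_piR_ species tested, 1.51%, 1.74% and 0.789% fell on the mmu_piR_ scale without those controls. Without those heat stress libraries 5.21%, 22.0% and 4.91% fell. All 87 falls and 6 rises kept their sign in all 16 fits of the 180 members on all listed species, and 9 falls and 3 rises were called in each of these fits. Each of the 16 fits uses controls that chose the members. Comparisons with a single control left out of the choice are not among them.

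**Figure D2:**
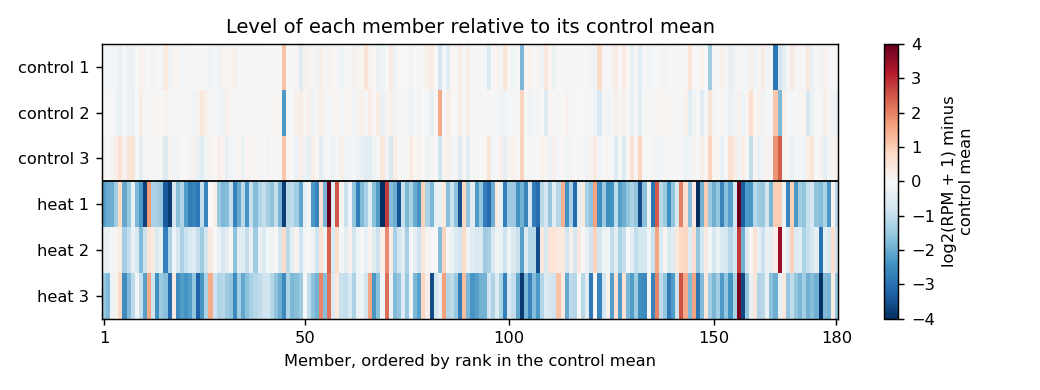
Level of each of the 180 members in each library on the log2(RPM + 1) scale, minus the member's mean over the 3 controls, with members ordered by rank in the control mean. Blue is below and red above the control mean: heat stress replicates 1 and 3 are blue for most members, with medians of -1.51 and -1.35, and replicate 2 is paler, with a median of -0.41.

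The 10 species with the highest control means were described one by one, all of them named by rank. mmu_piR_021137, first in control, stood at 20418, 21226 and 22674 RPM in control and 4697, 17369.7 and 7486 RPM in heat stress. mmu_piR_024946, second in control, stood at 10006, 10441 and 10346 RPM and 2601, 8583 and 3006 RPM. For both, no heat stress library reached the lowest control, with replicate 2 close behind the controls and replicates 1 and 3 far below. Both were called lower on the RPM scale (limma log2 fold change -1.34 with SE 0.43 and -1.34 with SE 0.43, adjusted p 0.025 and 0.0262) and on the mmu_piR_ scale (adjusted p 0.0439 and 0.0439). Neither passed with TMM scaling or without any 1 of the controls, with limma adjusted p of 0.0569 to 0.192. Without heat stress replicate 1 or 3 they did not pass either, with limma adjusted p of 0.0827 to 0.107. With no filter the limma adjusted p were 0.378 and 0.428, with edgeR 0.387 and 0.414 and with DESeq2 0.130 and 0.161.

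mmu_piR_012747 stood at 6749.9, 7200.5 and 7799 RPM in control and 1887, 6805 and 6242 RPM in heat stress, and mmu_piR_036540 at 5976, 6052 and 7605 RPM and 2453, 7025 and 7186 RPM. In both, heat stress replicate 1 alone was far below the controls. Neither passed on either scale, with limma adjusted p of 0.193 and 0.476 on the RPM scale. With array weights, which give each library its own weight, limma called both lower (-1.24 and -0.77, adjusted p 0.00467 and 0.0425), whereas mmu_piR_036540 was at 0.23 with TMM factors (limma adjusted p 0.638). mmu_piR_026888 was the only 1 of the 10 with a higher mean in heat stress, at 4996, 4963 and 9032 RPM in control and 10648, 7513 and 10336 RPM in heat stress. Control replicate 3 lay between the heat stress values, and the difference did not pass (log2 fold change 0.63, SE 0.37, limma adjusted p 0.181). It was called higher with TMM factors (1.25, limma adjusted p 0.0491) and with array weights (0.86, limma adjusted p 0.0176).

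mmu_piR_034927 stood at 4397, 4443 and 5203 RPM in control and 1132, 1835 and 836 RPM in heat stress, so that its mean was 3.69-fold lower. mmu_piR_012594 stood at 3465, 3459 and 5883 and 1455, 2139 and 1206 RPM, and mmu_piR_015400 at 3804, 4173 and 2462 and 692, 987 and 1759 RPM. All 3 fell without overlap (limma log2 fold changes -1.96, -1.41 and -1.67, adjusted p 0.00503, 0.0138 and 0.00956). The call of mmu_piR_012594 was lost without control replicate 3, at -1.16 with a limma adjusted p of 0.0975, and without heat stress replicate 3, at -1.23 with 0.0527. With TMM scaling the limma adjusted p was 0.161 for this species and 0.0605 for mmu_piR_015400. With edgeR none of the 3 passed (log2 fold changes -1.25, -0.78 and -1.04, adjusted p 0.0632, 0.267 and 0.130), nor with no filter (limma adjusted p 0.0588, 0.403 and 0.187). mmu_piR_009321 stood at 3323, 3189 and 5543 RPM in control and 3161, 3305 and 1867 RPM in heat stress, and mmu_piR_009999 at 3995, 4025 and 3816 and 1133, 2546 and 3662 RPM. Their heat stress values reached up to or near the lowest control, and neither passed (limma adjusted p 0.282 and 0.125), though mmu_piR_009999 was called lower with array weights (limma adjusted p 0.00269). On the mmu_piR_ scale, as on the RPM scale, limma called 5 of the 10 lower and 0 higher with all libraries and equal weights.

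The 6 members that rose lay at control ranks 12 to 156, with 5 of them in the band from rank 51 down that holds 130 of the 180. mmu_piR_017645, at rank 156 in the control mean, stood at 528, 622 and 485 RPM in control and 11219, 3773 and 7514 RPM in heat stress, so that its mean was 13.8-fold higher. mmu_piR_020107, at rank 56, stood at 1081, 933 and 920.2 RPM and 19479, 4956 and 4412 RPM. mmu_piR_007137, at rank 70, stood at 884, 938 and 785 RPM and 6065, 3197 and 3976 RPM. In these 3 each heat stress library was several times every control, with replicate 1 the highest (limma log2 fold change 3.65 with SE 0.43, 2.95 with SE 0.49 and 2.29 with SE 0.38, adjusted p 0.000366, 0.00276 and 0.00262). They were the 3 rises called in all 16 fits. The mean of mmu_piR_020107 rested mainly on replicate 1, but the values of 4956 and 4412 RPM in replicates 2 and 3 also lay far above the controls.

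mmu_piR_026778 stood at 597, 636 and 534 RPM in control and 3219, 1745 and 2274 RPM in heat stress, and mmu_piR_020351 at 604, 552 and 581 and 2341, 1000.2 and 3419.8 RPM (limma log2 fold changes 1.99 and 1.79, adjusted p 0.00493 and 0.00954). With no filter neither passed (limma adjusted p 0.0654 and 0.145). mmu_piR_006805, at rank 12 in control, stood at 3072, 3243 and 2947 RPM and 10005, 4430.03 and 9008 RPM. Its groups did not overlap on the RPM scale (limma log2 fold change 1.25, SE 0.39, adjusted p 0.0215), but it was the 1 rise that was not called on the mmu_piR_ scale, at 0.91 with a limma adjusted p of 0.119. It also lost its call without any 1 of the controls (0.0683 to 0.0805) and without heat stress replicate 1 or 3 (0.055 and 0.0757, limma adjusted p), and with no filter (limma adjusted p 0.480). These 6 species took up 0.677%, 0.692% and 0.625% of the listed reads in control and 5.23%, 1.91% and 3.06% in heat stress, as a description of species called on the same libraries. A further 10 members lay above all controls in each heat stress library without passing, with log2 fold changes of 0.38 to 1.19 and limma adjusted p of 0.0555 to 0.436.

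The 87 members that fell held 12.1%, 12.1% and 12.4% of the listed reads in control and 2.95%, 7.47% and 3.48% in heat stress. They were chosen on the same libraries, so these shares are a description. Their means were between 1.98-fold and 7.41-fold lower in heat stress, with a median of 2.67-fold, and in 86 of them the groups did not overlap. In 76 of the 87 heat stress replicate 2 was the highest of its group, and replicate 1 was the lowest in 55. mmu_piR_008428 had the largest fall, from 734, 625 and 680.01 RPM to 81.0, 56.9 and 137 RPM, a 7.41-fold lower mean (limma log2 fold change -2.97, SE 0.44, adjusted p 0.0013). In this species replicate 2 was the lowest of the heat stress libraries.

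mmu_piR_010208 fell from 507, 477 and 637 RPM to 53.5, 141 and 42.9 RPM, mmu_piR_032336 from 471, 494 and 554 RPM to 151, 63.9 and 32.6 RPM and mmu_piR_023459 from 561, 575 and 574 RPM to 34.1, 194 and 75.5 RPM. All heat stress values of these 3 species were below every control (limma log2 fold changes -2.94, -2.87 and -2.83, SE 0.49, 0.52 and 0.54, adjusted p 0.00247, 0.00375 and 0.00459). The lowest of them, mmu_piR_032336 in heat stress replicate 3, rested on 19 reads, whose exact 95% Poisson interval corresponds to 19.6 to 50.9 RPM and covers counting error only. More abundant species also fell by large factors. mmu_piR_023644 fell from 1958, 2164 and 2307 RPM to 157, 937 and 259 RPM, mmu_piR_000858 from 2949, 2434 and 1586 RPM to 216, 334 and 707 RPM and mmu_piR_019702 from 1590.3, 1697 and 1236 RPM to 204, 769 and 159.6 RPM (limma log2 fold changes -2.66, -2.60 and -2.35, adjusted p 0.00503, 0.00375 and 0.0054). These 7 species were among the 9 falls called in all 16 fits. mmu_piR_013381 was less secure, at 149.99, 952 and 985 RPM in control and 141, 115 and 36.0 RPM in heat stress. Its control replicate 1 was barely above the highest heat stress library. The log2 fold change of -2.62 (limma adjusted p 0.0105) lost its call without heat stress replicate 3 (-2.02, limma adjusted p 0.0626), with TMM scaling (limma adjusted p 0.0767), with array weights (-2.03, limma adjusted p 0.307) and after thinning to equal depth (limma adjusted p 0.0586).

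**Figure D3:**
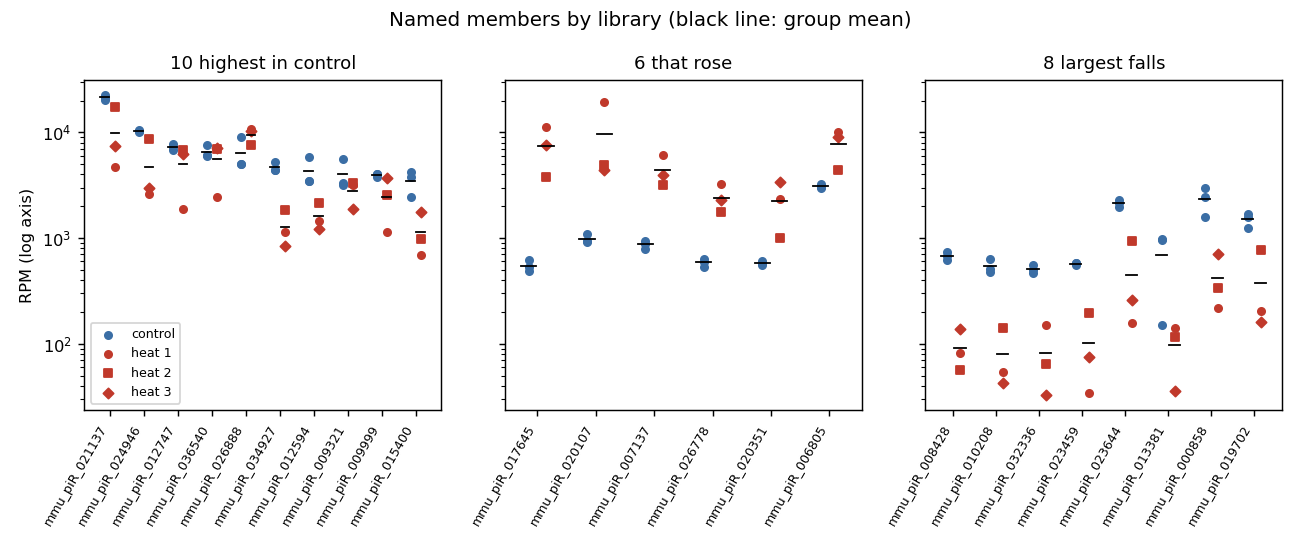
RPM on a log axis in each library for the 10 members with the highest control means, the 6 that rose and the 8 with the largest falls, with blue points for controls, red points for heat stress replicates 1 (circle), 2 (square) and 3 (diamond), and black lines for group means. In the middle panel every red point lies above the blue ones, and in the right panel every red point lies below them.

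At the lower edge of the pool, the 3 members with the lowest control means were mmu_piR_015199, mmu_piR_033809 and mmu_piR_004151, at means of 503.7, 502.6 and 501.8 RPM in control and 188.7, 660.2 and 226.1 RPM in heat stress. The 3 species just outside were mmu_piR_011323, mmu_piR_033113 and mmu_piR_017050, at 499.1, 497.8 and 497.4 RPM in control and 181.9, 108.6 and 322.1 RPM in heat stress. The limit of 500 RPM thus cut through species with like values on both sides.

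Most members stood at lower ranks after heat stress. Ranks were taken among all mmu_piR_ species of a library. The median rank of the members was 91.5, 90.5 and 91.5 in the controls, which the choice sets, and 497, 139 and 406 in the heat stress libraries. Of the 180 members, 44, 106 and 48 were among the 180 most abundant mmu_piR_ species of heat stress replicates 1, 2 and 3, against 163, 159 and 162 in the controls. For the lists of 182, 178 and 177 species chosen on 2 controls, the control left out had 157, 151 and 147 of them among as many top species. In heat stress replicates 1, 2 and 3 these lists had 44 to 45, 107 to 111 and 48 to 52 there. Ranks beyond 1000 were held by 34, 4 and 38 members in the heat stress libraries and by 1, 1 and 0 in the controls.

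The head of the pool stayed within the first 180, but mostly at lower ranks. All 10 species with the highest control means were among the 180 most abundant mmu_piR_ species in each heat stress library. Only 1, 5 and 4 of them, however, were among the first 10 there, where 4, 7 and 6 of the first 10 species were members at all. mmu_piR_021137 ranked 16, 1 and 8 in heat stress replicates 1, 2 and 3, and mmu_piR_024946 ranked 27, 4 and 22. At control rank 5, mmu_piR_026888 ranked 6, 5 and 3. At control ranks 6 and 10, mmu_piR_034927 ranked 90, 24 and 116 and mmu_piR_015400 ranked 170, 64 and 43. mmu_piR_020107 ranked 2, 9 and 14 and mmu_piR_017645 5, 11 and 7. Among members with falls, mmu_piR_008428, at rank 107 in the control mean, ranked 1682, 2431 and 1212.

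**Figure D4:**
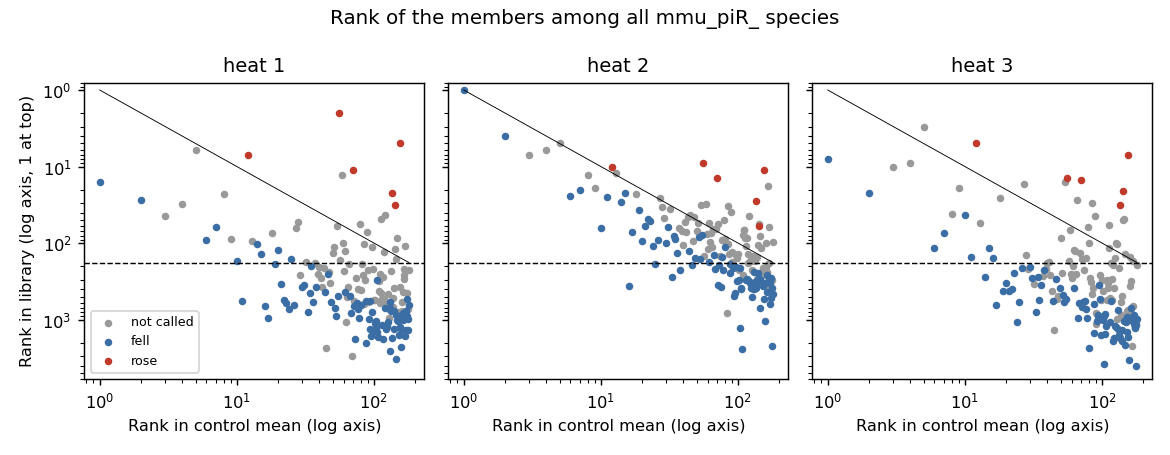
Rank of each member in heat stress replicates 1, 2 and 3 against its rank in the control mean, both on log axes and counted among all mmu_piR_ species, with the dashed line at rank 180, the thin line at equal rank and colours for members that rose (red), fell (blue) or were not called (grey) by limma. Above the dashed line lie 44, 106 and 48 of the 180 members.

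Across the 180 members, Spearman's rho of RPM between a heat stress library and the control mean was 0.45, 0.64 and 0.51, and between each control and the mean of the other controls it was 0.81, 0.84 and 0.75. Between heat stress libraries rho was 0.74 to 0.76. The deviations of the members from the control mean on the log2(RPM + 1) scale were alike in the heat stress libraries, with Pearson's r of 0.68 to 0.70 for the 3 pairs. These pairs share the control mean, and species of a library share its depth and scaling, so the coefficients are descriptions.

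Heat stress libraries also differed more from each other than the controls did. The SD of log2(RPM + 1) between libraries had a median over the 180 members of 0.78 in heat stress and 0.13 in control, and it was larger in heat stress for 167 members. For mmu_piR_ species of 100 to 500 RPM in the control mean these medians were 0.73 and 0.16, with a larger SD in heat stress in 975 of the 1073, so a wide spread was also seen below the limit. The highest heat stress value was more than 2-fold the lowest for 139 members, and the highest control value for 11. Scaling to the mmu_piR_ reads did not narrow the spread, with medians of 0.84 in heat stress and 0.13 in control. When each library was centred on its median member, the median SD was 0.53 in heat stress and 0.13 in control, and it was larger in heat stress for 160 members. With the same centring the medians at 100 to 500 RPM were 0.57 and 0.16, with a larger SD in heat stress for 921 of 1073. At 10 to 100 RPM they were 0.72 and 0.24, with a larger SD for 5153 of 5949. The wider spread was thus not particular to the pool. For the members, the spread in heat stress remained wider after each library was centred on its median member. The lower tiers were centred on that same member median and not on their own, so their own shifts may remain. Counting error, largest in the shallow heat stress replicate 3, was not separated from these SDs.

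**Figure D5:**
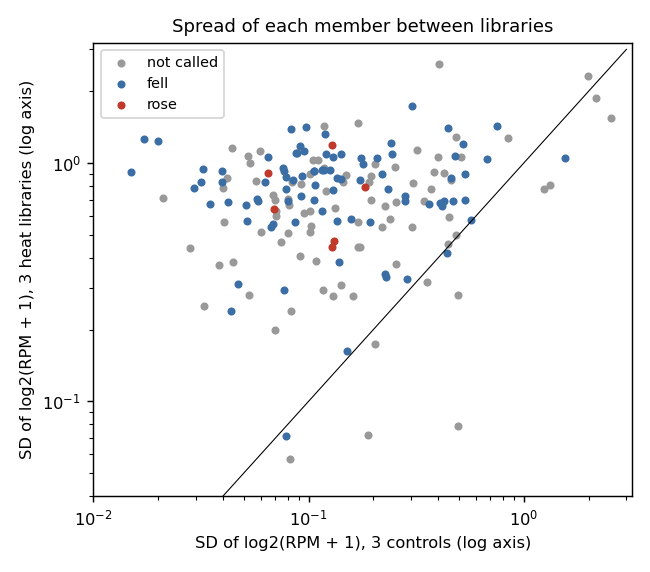
SD of log2(RPM + 1) between the 3 heat stress libraries against that between the 3 controls for each member, both on log axes, coloured by call (red rose, blue fell, grey not called), with a line at equality. Of the 180 points 167 lie above the line.

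Of the heat stress libraries, replicate 2 was the nearest to the controls. It was the highest of its group for 128 members and the lowest for 12, while replicate 1 was the lowest for 104 and replicate 3 for 64. A level more than 2-fold below the controls, on the log2(RPM + 1) scale, was seen for 124 members in replicate 1, 24 in replicate 2 and 114 in replicate 3, and more than 2-fold above for 11, 5 and 14. Replicate 2 also had the smallest share of mmu_piR_ reads of its group. Its part in the results is given by the values without it, a difference of -7.10 percentage points in the share of listed reads and 121 falls.

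The 3 members with the largest spread in heat stress were mmu_piR_000640, mmu_piR_014322 and mmu_piR_020885. mmu_piR_000640 stood at 741, 704 and 1169 RPM in control and 38.1, 984 and 791 RPM in heat stress, so that replicate 1 alone was low. mmu_piR_014322 stood at 1609, 143 and 1533 and 51.3, 1187 and 122 RPM, and mmu_piR_020885 at 155, 72.9 and 1349 and 491, 2662 and 204 RPM. In these 2 species the controls differed about as widely as the heat stress libraries. None of the 3 passed (limma adjusted p 0.24, 0.193 and 0.299). Without heat stress replicate 2 mmu_piR_014322 was called lower, at -3.14 with a limma adjusted p of 0.0415, and without control replicate 3 mmu_piR_020885 was called higher, at 2.59 with 0.029.

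The smallest spread in heat stress was that of mmu_piR_010528, at 555, 607 and 616 RPM in control and 533, 559 and 577 RPM in heat stress. Its values overlapped, and the difference did not pass (limma log2 fold change -0.09, SE 0.38, adjusted p 0.856). mmu_piR_007432 stood at 1076, 1012 and 1129 and 495, 510.5 and 463 RPM, and mmu_piR_024839 at 1039, 1039 and 829 and 693, 629 and 671 RPM. In both, the heat stress values lay close together below all controls, and limma called mmu_piR_007432 lower but not mmu_piR_024839 (log2 fold changes -1.13 and -0.54, limma adjusted p 0.0287 and 0.255). That call was lost without any 1 of the controls (limma adjusted p 0.116 to 0.130) and without heat stress replicate 3 (0.0572). It was also lost with TMM factors (-0.51, limma adjusted p 0.327), edgeR (-0.45, adjusted p 0.554), DESeq2 (-0.71, adjusted p 0.220), no filter (limma adjusted p 0.480) and the replicate block (limma adjusted p 0.057).

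The evenness of the pool was also described. The effective number of species, which is the number of equally abundant species that would give the same Shannon entropy, was 112.7, 111.2 and 105.6 in control and 61.6, 101.8 and 78.0 in heat stress. mmu_piR_021137 made up 9.31%, 9.55% and 9.78% of the pool's reads in control and 3.08%, 9.01% and 4.85% in heat stress. The 10 most abundant members of each library itself made up 30.7%, 31.2% and 35.0% of the pool in control and 50.2%, 34.8% and 41.3% in heat stress, where the groups overlapped. No test was made of these measures, since the controls chose the pool.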

How the data were processed

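Per the labels' protocols, Trizol was used for RNA extraction and Illumina protocols for the small RNA libraries. The aligner was not given in the sources used here, nor were the trimming steps, the piRNA database or the build. The authors deposited RPM values, under a column named tpm per the file headers. All columns add up to 1000000, and 100% of the values above 0 are whole multiples of the smallest within 0.001 of a read, so reads were recovered. One read is worth 0.235 to 0.442 RPM, and 1.72 RPM in heat stress replicate 3. No 2 libraries of a group agreed within sampling noise (chi-square per degree of freedom 5.10 to 52.8, species with at least 20 reads).

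The main test was limma 3.58.1 (R 4.3.3) on log2(RPM + 1), with trend and robust moderation, without covariates. Its fold changes understate those of low species. The same fit was run on values scaled to 1000000 mmu_piR_ reads. Shares were tested with exact permutation tests. Members named are the 10 highest in the control mean, up to 8 with the largest rises and 8 with the largest falls among those called, the 3 on each side of the limit, and the 3 with the largest and the 3 with the smallest spread in heat stress. Alternatives included a pseudocount of 0.1, filters, TMM factors, array weights, the replicate block, thinning to 582789 reads, edgeR 4.0.16 and DESeq2 1.42.0 on recovered reads, other limits, and leaving out each library. Fits were tested on simulated data. The members, lists and tests were chosen with earlier results of these data known. Same-numbered libraries did not deviate together, with correlations of deviations from group means between -0.04 and -0.03. No sequences are printed, as the identifiers come without them.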

Additional observations from a re-analysis of the deposited data

How the results depend on the processing

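The pool's share was lower in heat stress under every alternative run for the share. None of these changed the filter, the TMM scaling, the weights or the depth. The difference was -7.10 to -5.08 percentage points of the listed reads and -16.3 to -12.2 points of the mmu_piR_ reads when 1 library was left out, and -2.96 and -8.17 points without the 10 most abundant members. With 1 library left out the exact permutation p cannot go below 0.2. Counts of called members moved more. Leaving out 1 library gave 5 to 11 rises and 38 to 121 falls. Of all mmu_piR_ species tested, 9.09% to 20.3% rose and 4.05% to 20.03% fell in these fits. On the mmu_piR_ scale leaving out 1 library gave 1 to 6 rises and 6 to 129 falls. There 2.42% to 12.6% of all mmu_piR_ species tested rose and 0.789% to 22.02% fell. Rises and falls numbered 3 and 12 with no filter, 14 and 19 with TMM factors, 17 and 14 with edgeR and 12 and 40 with DESeq2, which gave no adjusted p for 1 member. Array weights gave 16 rises (8.89%) and 126 falls (70%), beside 21.0% and 21.1% of all mmu_piR_ species tested, and thinning to equal depth gave 47 falls. For no filter, TMM factors, edgeR, DESeq2 and thinning the shares of all mmu_piR_ species called are given above. With members chosen at 250 RPM there were 29 rises and 179 falls among 466, and at 1000 RPM 1 rise and 31 falls among 55. Species chosen on 2 controls were also compared with the third alone. Their median log2 fold changes were -1.04, -1.07 and -1.04 against control replicates 1, 2 and 3. Over all mmu_piR_ species tested these medians were 0.0023, 0.0161 and 0.0627. In these fits the lone control is assumed to vary like the heat stress libraries, so their calls say little of stability and are not given. Some of these fits had fewer libraries or reads, and why the counts moved was not tested.

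The replicate number as a block gave 7 rises and 84 falls, beside 16.5% and 10.7% of all mmu_piR_ species tested. On the mmu_piR_ scale it gave 5 and 90, beside 10.4% and 12.5%. For the shares the paired differences are those given above, with an exact p of 0.25, the smallest 3 pairs allow. The numbers do not pair the libraries by the labels or the data.

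Among the named members the sign changed in 15 values, none of them of a member that was called, while 438 values kept direction and side of the threshold, 131 lost the call and 9 gained one. Under TMM factors the log2 fold change was 0.0882 for mmu_piR_009321, 0.53 for mmu_piR_010528, 0.0802 for mmu_piR_024839 and 0.23 for mmu_piR_036540, and under edgeR 0.17, 0.57, 0.15 and 0.26. Under DESeq2 it was 0.31 for mmu_piR_010528 and 0.0037 for mmu_piR_036540. With 1 library left out it ranged from -2.27 to 0.0568 for mmu_piR_000640 and from -0.647 to 0.13 for mmu_piR_036540, in both cases above 0 without heat stress replicate 1. Against the single controls 1, 2 and 3 it was 0.0035 for mmu_piR_010528, 0.45 for mmu_piR_014322 and -1.07 for mmu_piR_020885. Depth limits heat stress replicate 3 most, where the median member had 215.5 reads.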

Other observations

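The pool of heat stress chosen by the same limit was partly another one. In heat stress 233 mmu_piR_ species averaged 500 RPM or more, of which 84 were also dominant in control. These are 46.7% of the control pool and 36.1% of the heat stress pool. The 149 species found in the heat stress pool alone had a median control mean of 158.6 RPM, and the 96 found in the control pool alone had a median heat stress mean of 269.3 RPM. Choosing on one group's values lowers the other group's by itself, and the number of species above a limit in RPM also follows the share of mmu_piR_ reads. The 180 most abundant mmu_piR_ species of each library itself held 33.1%, 33.5% and 34.9% of the mmu_piR_ reads in control and 43.2%, 32.6% and 35.0% in heat stress, so that these ranges overlapped. Of the first 10 species by heat stress mean, 6 were dominant in control. The other 4 were mmu_piR_023231, mmu_piR_038322, mmu_piR_000128 and mmu_piR_030366, at 73.2, 145.7, 379 and 236 RPM in the control mean and 18668, 9397, 8664 and 6822 RPM in the heat stress mean.

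A few dominant species differed widely among the controls themselves, and are named here after their values were seen. For 3 members the highest control was more than 10-fold the lowest. mmu_piR_035402 stood at 35.9, 591 and 951 RPM in control replicates 1, 2 and 3 and at 557, 332 and 70.4 RPM in heat stress replicates 1, 2 and 3. The other two were mmu_piR_020885, high in control replicate 3 alone, and mmu_piR_014322, low in control replicate 2 alone. mmu_piR_031187 was high in control replicate 2 alone, at 345, 1675 and 336 RPM. These species were low or high in different controls, while the median SD of the members among controls was 0.13 on the log2(RPM + 1) scale.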
